A study of Mus musculus with 2 samples.

Results

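The ratios of 10 genes that govern the G1 phase of the cell cycle were described in cells sorted from mouse dorsal skin. The genes were the D-type cyclins Ccnd1, Ccnd2 and Ccnd3, their kinases Cdk4 and Cdk6, cyclin E1 (Ccne1), and the kinase inhibitors Cdkn1a, Cdkn1b, Cdkn1c and Cdkn2c. Every non-control oligo of the array named for one of these genes was taken, whatever its value. All 10 genes were on the array, with 18 oligos, and 8 genes with 11 oligos passed a filter on dim signals, out of 6195 genes that passed in all. The set was put together with the ratios of this same comparison known, because Ccnd1 and Ccnd2 pointed in opposite directions, so the values below are a description and carry no test.

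One population was the GFP-high fraction from Lgr6-EGFP-ires-CreERT2 knock-in mice and the other the GFP-high fraction from Lgr5-EGFP-ires-CreERT2 knock-in mice. In both lines the reporter is read from the promoter of the named gene, and cells were taken by reporter brightness alone. Per the labels' protocols, 3 mice were pooled per sort and 150 ng of Trizol-extracted RNA was amplified and labelled; the labels used here give neither age nor sex. Both populations were hybridised together on 2 two-colour arrays. On array 1 the Lgr6-high RNA carried Cy5 and the Lgr5-high RNA Cy3, and array 2 had the reverse labelling. Nothing in the labels says whether RNA of separate sorts went on each array. The pair therefore counts as 1 replicate, and each SD below is over n = 2 arrays and may be technical.

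Cells commit to division in G1. D-type cyclins bind CDK4 or CDK6, and cyclin E binds CDK2; these kinases phosphorylate the retinoblastoma protein, which then releases E2F factors that switch on genes of DNA replication. The inhibitors of the CIP/KIP family (p21, p27 and p57, from Cdkn1a, Cdkn1b and Cdkn1c) bind cyclin-kinase complexes, and those of the INK4 family, such as p18 from Cdkn2c, bind CDK4 and CDK6. In skin, hair follicle stem cells alternate between long rest and short bursts of division, and this machinery takes part in that switch.

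The oligos are 60 bases long, and 4 that bear on the results are shown. The first pair belongs to Ccnd2, the cyclin that was higher in Lgr6-high cells; these oligos share no run longer than 6 bases with the oligo of another D cyclin. They lie at chr6:127098696-127098755 and chr6:127089187-127089246 of mouse build mm9, on the minus strand, and start at bases 609 and 869 of the transcript. The Cdk4 oligo lies at chr10:126501967-126502026 on the plus strand and belongs to the member nearest to the threshold. Its capitals mark GACTTTGGC, the codons of the Asp-Phe-Gly motif found in the active site of protein kinases; 26 of 41174 oligos on the array (0.063%) hold these letters on either strand. The Cdkn1b oligo lies at chr6:134871103-134871161 on the plus strand and stands for a gene that was near background.
Ccnd2, base 609: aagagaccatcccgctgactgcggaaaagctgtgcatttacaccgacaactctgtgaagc
Ccnd2, base 869: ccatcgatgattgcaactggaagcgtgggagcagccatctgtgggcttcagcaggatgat
Cdk4, base 603: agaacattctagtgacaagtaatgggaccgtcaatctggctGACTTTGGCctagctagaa
Cdkn1b, base 684: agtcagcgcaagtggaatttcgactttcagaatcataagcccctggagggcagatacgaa
Each of the 4 sequences reads through in at least 1 frame without a stop codon. Over all 142 pairs of oligos of different members the longest shared run was 8 bases. The oligos of Ccnd1 (base 3323, chr7:152116173-152116232, minus strand) and Cdkn1a (base 1619, chr17:29237377-29237436, plus strand) lie further along their transcripts and are given by position.

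The ratios split the genes rather than moving them together. Ccnd2 and Cdkn1a were about 3 times as high in Lgr6-high as in Lgr5-high cells, Ccnd1 was 2.46 times as high in Lgr5-high cells, and Cdk4, Ccne1 and Ccnd3 leaned to the Lgr5-high side below 2-fold. A gene was counted as different by a rule of size, a mean log2 ratio of at least 1 in either direction with a ratio of 0.5 or more in that direction on both arrays taken singly. By this rule 3 of the 8 measured members differed, 2 higher in Lgr6-high cells and 1 in Lgr5-high cells. Over all 6195 genes the rule took 12.0%, with 7.22% higher in Lgr6-high and 4.79% higher in Lgr5-high cells. The count on the Lgr5-high side was 297 genes. It was 492 with array 2 alone, where only a log2 ratio of at least 1 on that array was asked. Of all calls with both arrays 60.1% were on the Lgr6-high side, and with other background corrections or scalings 45.1% to 70.2%. Since the members were picked on this comparison, nothing is read from their share. Their median log2 ratio of -0.48 lay below that of all genes, -0.05, and 3 of 8 had a ratio above 0, against 46.4% of all genes. In sorted bulk populations, fewer cells that express a gene and less of its RNA per cell cannot be told apart.

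**Figure D1:**
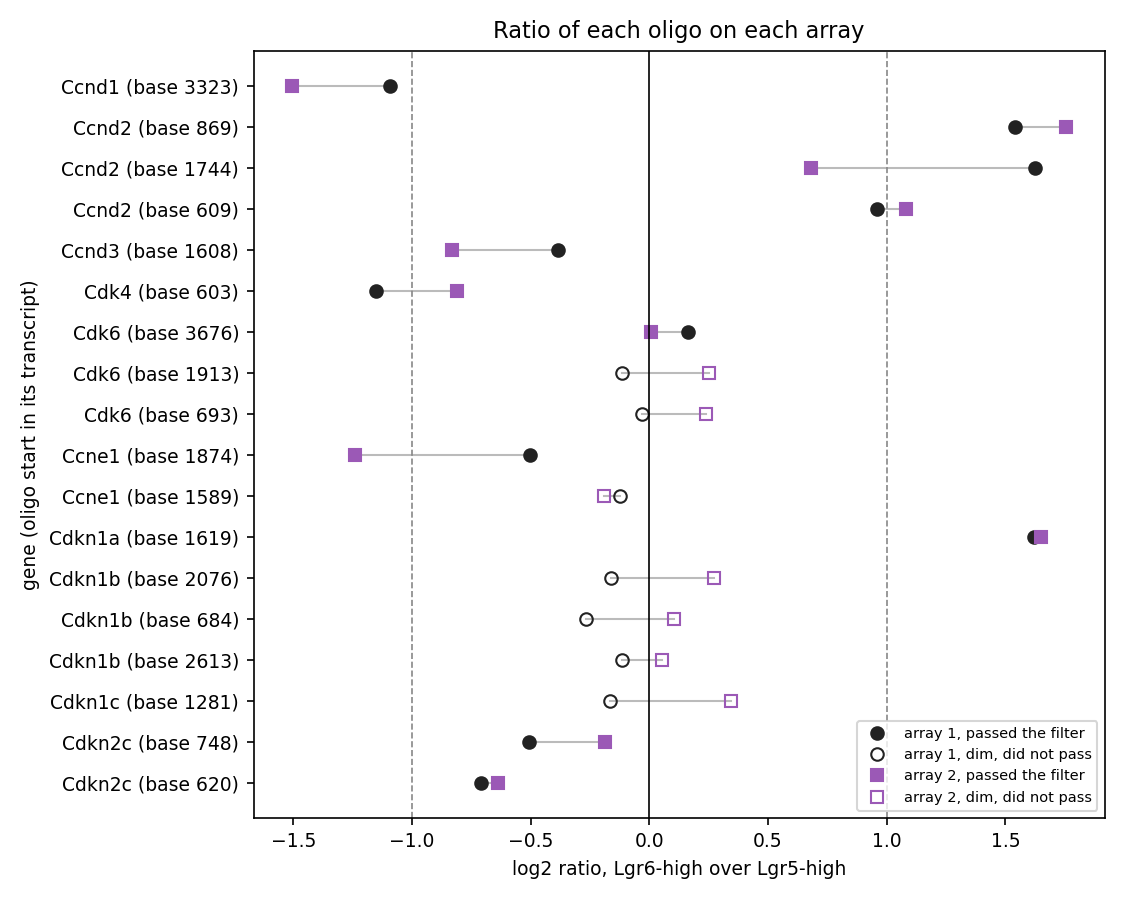
Log2 ratio of Lgr6-high over Lgr5-high cells (x axis) for each of the 18 oligos (y axis, with the base at which the oligo starts in its transcript); circles are array 1, squares array 2, open symbols oligos that did not pass the filter, and dashed lines mark a 2-fold difference. All 3 Ccnd2 oligos and the Cdkn1a oligo lie to the right on both arrays, the Ccnd1 oligo lies to the left, and the 7 open pairs lie near 0.

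Among the D cyclins, Ccnd1, a cyclin induced by growth factor and Wnt signals, was the lower one in Lgr6-high cells. Its uncorrected signal in the Cy3 channel was 727 in Lgr5-high cells (array 1) and 411 in Lgr6-high cells (array 2), over local backgrounds of about 52. In the Cy5 channel it was 369 in Lgr5-high cells (array 2) and 181 in Lgr6-high cells (array 1), over local backgrounds near 130. Within each dye the Lgr5-high signal was thus the higher one. After background correction and normalisation the log2 ratio was -1.09 on array 1 and -1.50 on array 2, with a mean of -1.30 ± 0.29 (SD, n = 2), or 2.46-fold. It was the 161st lowest ratio of 6195.

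Ccnd2, a D cyclin best known from ovarian granulosa cells and B cells, went the opposite way. At base 869 its Cy3 signal was 5715 for Lgr6-high and 1642 for Lgr5-high RNA, and its Cy5 signal 932 for Lgr6-high and 371 for Lgr5-high RNA. The log2 ratios of this oligo were 1.54 and 1.76, a mean of 1.65 ± 0.15 (SD, n = 2) or 3.14-fold, the 158th highest of all genes. Both other Ccnd2 oligos also met the rule. At base 609 the ratios were 0.96 and 1.08 (mean 1.02 ± 0.09, 2.03-fold), and at base 1744 they were 1.62 and 0.68 (mean 1.15 ± 0.67, 2.22-fold). The Ccnd2 oligos share at most 7 bases with each other, so the same direction was read by 3 distinct stretches of the transcript, with a size from 2.03 to 3.14-fold. The oligo at base 1744 (chr6:127079694-127079753) was the one whose arrays were furthest apart.

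Ccnd3, the third D cyclin, did not meet the rule. Its Cy3 signals were 431 in Lgr5-high and 428 in Lgr6-high cells, and its Cy5 signals 281 in Lgr5-high and 188 in Lgr6-high cells. The log2 ratios were -0.38 and -0.83, a mean of -0.61 ± 0.32 (SD, n = 2). Set against each other on the same array, the ratio of Ccnd2 exceeded that of Ccnd1 by 2.63 and 3.26 log2 units (mean 2.95 ± 0.44) and that of Ccnd3 by 1.92 and 2.59 (mean 2.26 ± 0.47). The ratio of Ccnd1 was below that of Ccnd3 by a similar amount on both arrays, -0.71 and -0.67. The order Ccnd2, Ccnd3, Ccnd1 was the same on both arrays. These are differences between ratios, and the brightness of 1 oligo was not compared with that of another.

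**Figure D2:**
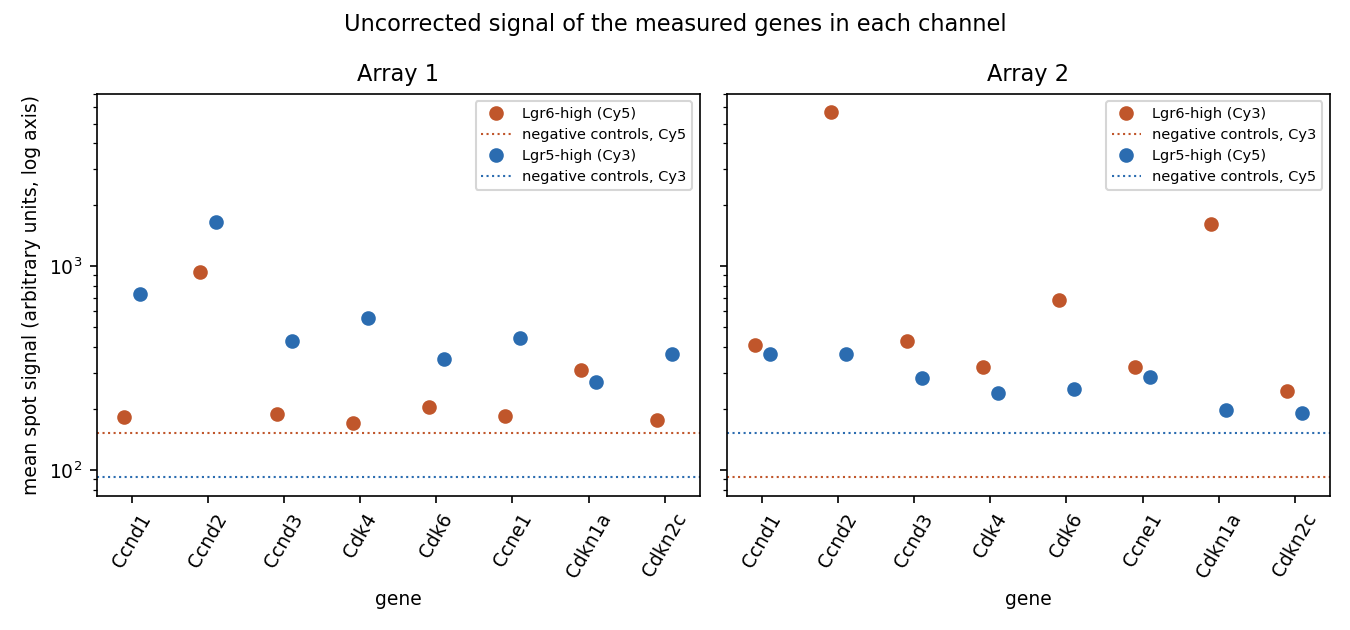
Uncorrected mean spot signal (y axis, arbitrary units, log axis) of the oligo that stands for each of the 8 measured genes (x axis) in each channel, with 1 panel per array and dotted lines at the median of negative controls in that dye. Most Cy5 signals sit close to their dotted line, and the highest points are the Cy3 signals of Ccnd2 (5715) and Cdkn1a (1606) for Lgr6-high RNA on array 2 and of Ccnd2 (1642) for Lgr5-high RNA on array 1.

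Of the kinases that D cyclins activate, Cdk4 leaned to the Lgr5-high side. Its Cy3 signal was 556 in Lgr5-high and 322 in Lgr6-high cells, and its Cy5 signal 239 in Lgr5-high and 171 in Lgr6-high cells. The log2 ratios were -1.15 and -0.81, a mean of -0.98 ± 0.24 (SD, n = 2) or 1.98-fold, which places Cdk4 just outside the rule; 5.3% of all genes had a ratio as low or lower. The called member nearest to the threshold was Ccnd1, at -1.30.

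Cdk6, the alternative partner of the D cyclins, was near equal in the populations. The oligo at base 3676 gave 681 (Lgr6-high) and 351 (Lgr5-high) in Cy3, but 204 (Lgr6-high) and 250 (Lgr5-high) in Cy5, so the dyes disagreed on which population was brighter. Its log2 ratios were 0.16 and 0.01, a mean of 0.09 ± 0.11 (SD, n = 2). The dim oligos at bases 1913 and 693 had means of 0.07 ± 0.26 and 0.10 ± 0.19 and did not pass the filter. On the same array the ratio of Cdk6 exceeded that of Cdk4 by 1.32 and 0.82 log2 units, a mean of 1.07 ± 0.35.

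Ccne1, which partners CDK2 later in G1, was lower in Lgr6-high cells on both arrays without meeting the rule. Its oligo at base 1874 gave Cy3 signals of 445 in Lgr5-high and 321 in Lgr6-high cells, and Cy5 signals of 285 and 184 in the same order. The log2 ratios were -0.50 and -1.24, a mean of -0.87 ± 0.52 (SD, n = 2), the widest spread between arrays among the 8 genes. The other Ccne1 oligo, at base 1589, was well above background for only 1 population on each array, the one labelled with Cy3, and gave -0.12 and -0.19.

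Among the inhibitors, Cdkn1a, which encodes p21 and is a well-known p53 target, was higher in Lgr6-high cells. Its Cy3 signal was 1606 for Lgr6-high and 269 for Lgr5-high RNA, and its Cy5 signal 311 for Lgr6-high and 197 for Lgr5-high RNA. The log2 ratios of 1.62 and 1.65 lay closer together than those of any other measured member, with a mean of 1.64 ± 0.02 (SD, n = 2) or 3.11-fold, the 163rd highest of all genes. Cdkn2c, the INK4 inhibitor, had ratios of -0.51 and -0.19 at base 748 (mean -0.35 ± 0.23, 1.27-fold), with Cy3 signals of 371 in Lgr5-high and 243 in Lgr6-high cells and Cy5 signals of 190 and 176. A neighbouring Cdkn2c oligo, at base 620 of another transcript record, gave -0.71 and -0.64. It shares 40 of its bases, so this pair is not independent. The neighbour passed the filter through the Lgr5-high population only, with Lgr6-high signal above background on array 2 alone, which favours ratios below 0. The ratio of Cdkn1a exceeded that of Cdkn2c by 2.13 and 1.84 log2 units on the same array, a mean of 1.98 ± 0.21, and that of Ccnd1 by 2.72 and 3.15.

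The oligos of Ccnd1, Cdkn1a and Cdkn1b at bases 3323, 1619 and 684 were each printed at 10 spots, which shows the spread within an array. The 10 Ccnd1 spots ranged from -1.36 to -0.86 on array 1 (SD 0.150) and from -1.95 to -1.33 on array 2 (SD 0.188). For Cdkn1a, 8 spots per array had no outlier mark, and they ranged from 1.46 to 1.81 (SD 0.123) and from 1.43 to 1.95 (SD 0.168). No spot of either gene crossed 0. Spots of 1 oligo on 1 array share RNA and labelling and are not replicates of the populations.

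**Figure D3:**
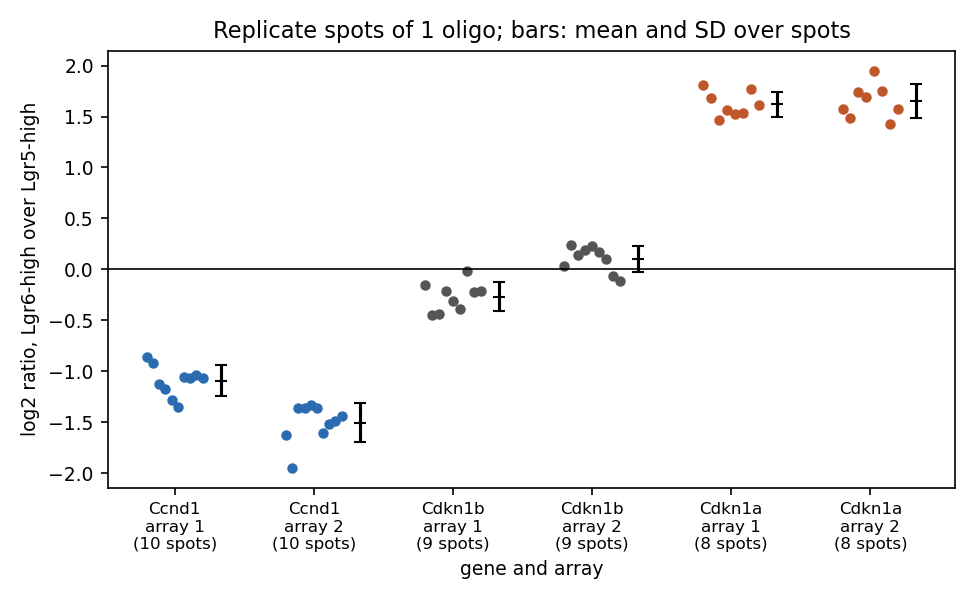
Log2 ratio of Lgr6-high over Lgr5-high cells (y axis) at each unmarked replicate spot of 1 oligo of Ccnd1, Cdkn1b and Cdkn1a on each array (x axis); the bar beside each cloud is the mean ± SD over spots. The highest Ccnd1 spot is at -0.86 and the lowest Cdkn1a spot at 1.43, whereas those of Cdkn1b lie from -0.45 to 0.24.

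Cdkn1b and Cdkn1c, which encode the CIP/KIP inhibitors p27 and p57, could not be measured here. The 10-spot Cdkn1b oligo was well above background at 5 of 9 used spots for Lgr5-high RNA on array 1 and at 0 spots in the other channels. Its ratios were -0.27 and 0.10, and its spots ranged from -0.45 to -0.01 on array 1 and from -0.12 to 0.24 on array 2. Both other Cdkn1b oligos gave means of 0.06 ± 0.31 and -0.03 ± 0.12, and the latter was above background in no channel. The single Cdkn1c oligo was above background only in the population labelled with Cy3 on each array and gave -0.16 and 0.34. A ratio near 0 from such dim oligos says nothing about equal amounts of RNA.

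The signals of these genes were modest next to the Cy5 background. In the Cy3 channel 31.6% (array 1) and 33.3% (array 2) of all probe spots were well above background, against 15.3% and 16.2% in the Cy5 channel, with 0 saturated probe spots. Median negative-control signals were 152.6 and 151.8 in Cy5 and 92.8 and 91.9 in Cy3. Ccnd2 ranked at percentile 90.9 of all passing genes by brightness, Cdkn1a at 63.7, Ccnd1 at 61.2, Cdk4 at 46.3 and Cdkn2c at 30.4. Of the reporter genes, the Lgr5 oligo with signal had a log2 ratio of -1.83 ± 0.12. It passed the filter through the Lgr5-high population only, with Lgr6-high signal above background on 1 array, which favours a ratio below 0. The other Lgr5 oligo (0.07 ± 0.04) and both Lgr6 oligos (0.02 ± 0.14 and 0.05 ± 0.14) did not pass the filter. These ratios are therefore a limited check of the sort.

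The choice of processing moved sizes and calls more than directions. Over 11 alternatives Ccnd1 ranged from -2.04 to -0.73, Ccnd2 from 1.12 to 1.88, Cdkn1a from 1.02 to 2.34 and Cdk4 from -1.77 to -0.61, and each kept its sign on the mean. Cdk6 ranged from -0.01 to 0.25 and was the member that changed sign. Ccnd1 fell short of the rule with no background subtraction (-0.98) and with the background model fitted on all spots (-0.73), and Cdkn1a with the latter, at 1.02 with 0.43 on array 2. With median centring in place of loess none of the members met the rule: the Ccnd2 mean of 1.66 came from -0.73 on array 1 and 4.04 on array 2, and the Ccnd1 mean of -1.23 from -2.70 and 0.24. With the scanner's own ratios 7 members met it, Ccnd3 (-1.14), Cdk4 (-1.77), Ccne1 (-1.60) and Cdkn2c (-1.04) being added on the Lgr5-high side. With a single array the rule asked only for a log2 ratio of at least 1 in either direction on that array. Array 2 alone then added Ccne1 (-1.24) and array 1 alone Cdk4 (-1.15).

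**Figure D4:**
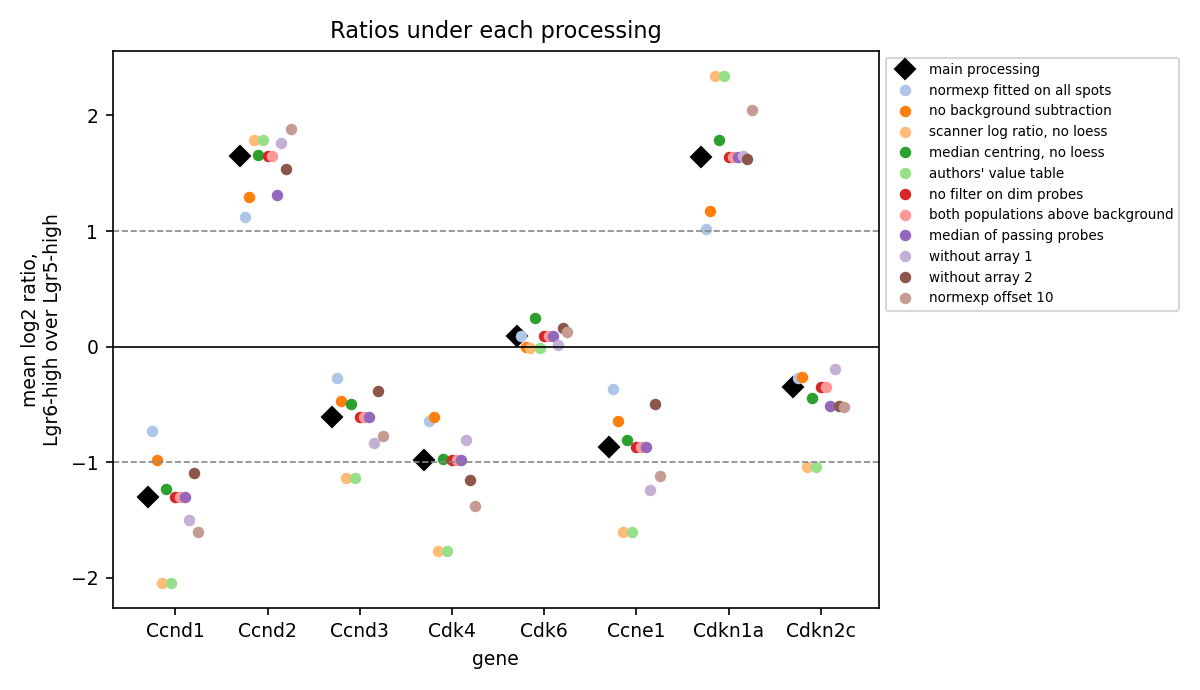
Mean log2 ratio of Lgr6-high over Lgr5-high cells (y axis) of the 8 measured members (x axis) with the processing used throughout (diamond) and with each of 11 alternatives (circles); dashed lines mark a 2-fold difference. Ccnd2 and Cdkn1a stay above 1 and Ccnd1 is at -0.73 or lower on the mean, and the remaining members spread between -1.77 and 0.25.

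Other genes of the G1 to S transition were taken from lists of the pathway, written with earlier results of these data known. Of 23 further cyclins, kinases and inhibitors 11 were measured; all 11 had a ratio below 0, with a median of -0.44, and 2 were called, both higher in Lgr5-high cells. These were Ccna2, the S-phase cyclin, with -1.05 and -1.49 (mean -1.27 ± 0.31), and Cks1b, a kinase subunit that helps degrade p27, with -2.18 and -1.27 (mean -1.73 ± 0.64). Among all genes that passed the filter, 4.79% were called on the Lgr5-high side, 46.4% had a ratio above 0 and the median was -0.05. Ccne2, Cdk2, Cdkn2a and Cdkn2b were among the 12 listed genes that did not pass the filter. Ccnh, Cdkn3, Ccng2 and Ccnc passed it through the Lgr5-high population only, with Lgr6-high signal above background on 1 array. Entry of that kind favours ratios below 0. Cdkn2d, the other INK4 inhibitor measured, had -0.15 and -0.72.

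Downstream of the kinases, none of the 6 measured genes of the retinoblastoma, E2F and DP families (of 17 listed) was called. Their median was -0.38, and Rbl1, which encodes the pocket protein p107, was furthest from 0 at -0.49 ± 0.02 (SD, n = 2). Rbl1, E2f1 and E2f6 passed the filter through the Lgr5-high population only, with Lgr6-high signal above background on 1 array. E2F target genes of S phase lay lower: of 18 measured, 9 were called, each on the Lgr5-high side, and the list's median was -1.02. The 3 furthest were Tk1, a thymidine kinase (-1.98 ± 0.36), Mcm7, a subunit of the replication helicase (-1.64 ± 0.13), and Uhrf1, a maintenance factor of DNA methylation (-1.61 ± 0.14). Of 16 measured mitosis genes 8 were called on the same side, and the median was -0.94, led by Cdca3 (-1.77 ± 0.33), Birc5 (-1.73 ± 0.40) and Cdc20 (-1.64 ± 0.55). Over all genes 4.79% were called on that side. Mcm2, Rrm2, Rfc4, Ung, Ccnb1, Cdk1, Plk1, Bub1b, Nusap1 and Tpx2 passed the filter through the Lgr5-high population only. Entry of that kind favours ratios below 0, and Rfc4, Ccnb1 and Plk1 were among the called genes. Ccnd2 and Cdkn1a were thus the called members with ratios opposite to those of the E2F target and mitosis genes.

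Genes that act on the members were mixed. Of 9 measured ubiquitin ligase genes of G1 regulators none was called, and Cul3, a cullin scaffold, was furthest at 0.58 ± 0.37. Of 22 measured transcription regulators of the members, 7 were called on the Lgr6-high side and 1 on the Lgr5-high side, Tcf7l1, at -1.26 ± 0.07 with its Lgr6-high signal above background on 1 array. Klf5 (2.39 ± 0.19), Fos (2.20 ± 0.27) and Egr1 (1.95 ± 0.51) had the highest ratios among them, and Trp53 itself, which encodes p53, was at 0.07 ± 0.48. Of 14 other measured p53 targets 8 were called, all on the Lgr6-high side as Cdkn1a was, and the median was 1.09. Sesn2 (2.79 ± 0.37), Btg2 (2.62 ± 0.09) and Mdm2 (1.90 ± 0.55, with Lgr5-high signal above background on 1 array) led them. Gadd45a, also called, and Plk3 likewise passed the filter through the Lgr6-high population only, and Ei24 through the Lgr5-high population only. Over all genes 7.22% were called on the Lgr6-high side. Of 17 measured immediate early genes 16 were called on the Lgr6-high side, and the median was 1.95, led by Dusp1 (3.08 ± 0.42), Atf3 (2.79 ± 0.92) and Nr4a1 (2.79 ± 1.01). Btg2, Mdm2, Fos, Jun, Egr1 and Myc each stand in more than 1 of these lists.

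**Figure D5:**
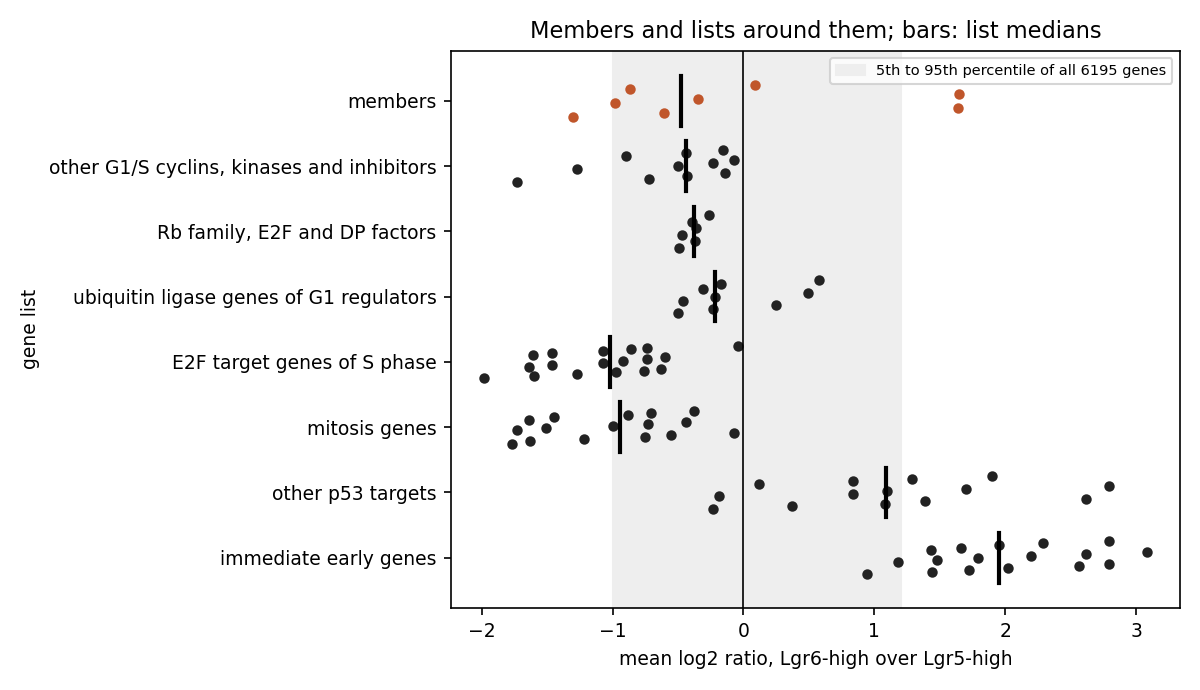
Mean log2 ratio of Lgr6-high over Lgr5-high cells (x axis) of each measured gene in the 10 genes described here and in the lists around them (y axis); vertical bars are medians and the shaded band holds the 5th to 95th percentile of all genes, -1.0 to 1.2. The other G1/S, E2F target and mitosis lists lie below 0, the p53 target and immediate early lists mostly above it, and the members span both sides. Some genes of the other G1/S, E2F, mitosis and p53 target lists passed the filter through a single population.

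Markers of other skin cells differed between the populations too. For scale, the rule took 7.22% of all genes on the Lgr6-high side and 4.79% on the Lgr5-high side. Of 10 keratinocyte markers 5 were called higher in Lgr6-high cells (Itga6, Itgb4, Col17a1, Dsp and Perp), with summed levels of 248428 and 128255 for the Lgr6-high and 64963 and 135605 for the Lgr5-high population on arrays 1 and 2, in normalised arbitrary units. The sum was thus higher in Lgr6-high cells on array 1 only. Krt5, Krt14 and Krt15 were not called, with ratios above 0 on array 1 and below 0 on array 2 (Krt14 2.27 and -0.21). Perp also stands among the p53 targets. Of 9 measured dermal fibroblast markers (of 12) 6 were called higher in Lgr5-high cells (Col1a1, Col1a2, Col3a1, Dcn, Fbln1 and Fbln2), with summed levels of 1453 and 933 for the Lgr6-high and 4649 and 2995 for the Lgr5-high population. Col3a1 and Dcn were not well above background in Lgr6-high cells on either array, and Pdgfra, Mfap5 and Dpt were not well above background. Of 4 measured endothelial and mural markers (of 14) Egfl7, Ramp2 and Tagln were called on the Lgr5-high side, and Acta2, a mural marker like Tagln, leaned to the Lgr6-high side without meeting the rule (0.61 and 1.18, mean 0.89 ± 0.40). The list had summed levels of 1219 and 1173 for the Lgr6-high and 2891 and 2459 for the Lgr5-high population, while Pecam1, Cdh5 and Kdr were not well above background. Mbp, Pmp22 and Ngfr of 8 Schwann cell and nerve markers were higher in Lgr6-high cells (1827 and 2315 against 373 and 533). Dct of 8 melanocyte markers, and Hbb-bt and Hba-a1 of the muscle, adipocyte and red cell markers, were called on the Lgr5-high side, and 0 of 12 leukocyte markers passed the filter. The other melanocyte markers did not pass it either. Dct and Egfl7 were not well above background in Lgr6-high cells on either array, and Col1a1, Col1a2, Fbln2 and Ramp2 only on 1. In Lgr5-high cells Mbp and Ngfr were well above background on 1 array. The part of these cell types, and of the immediate early genes, in the ratios of Ccnd1, Ccnd2 and Cdkn1a was not tested.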

How the data were processed

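RNA of Lgr6-high and Lgr5-high dorsal skin cells was compared on 2 dye-swapped Agilent arrays. The authors deposited scanner tables with spot and local background intensity on a linear scale and the software's log10 ratio of Cy5 over Cy3. The version of Agilent Feature Extraction is 10.5.1.1 per the file headers but 9.5.3 per the submitters' processing notes. The authors' value table of the series held the same log10 ratios, turned on array 2, so its direction was Lgr6-high over Lgr5-high with column medians of 0.

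Background was corrected with normexp (limma 3.58.1 in R 4.3.3; offset 50) fitted on spots without an outlier mark, and log ratios were normalised by loess within each array, control spots at weight 0. Control spots and marked spots (139 and 204) were left out. Replicate spots were averaged. Ratios were signed by the labels' dyes so that positive log2 values mean more RNA in Lgr6-high cells. The software's own ratios of Cy5 over Cy3, unsigned by dye, correlated between the arrays at a Pearson r of -0.447. That value is over all probe spots, marked ones included, and does not describe the normalised ratios. A probe passed if well above background for at least 1 population on both arrays (in over 0.5 of its unmarked spots), and a gene was represented by its brightest passing probe. The steps were tested on simulated data, with differences larger than those of the members planted in probes well above background in both channels. Recovery of ratios near the threshold, or of differences at dim probes, was not tested. Positions are on mm9 as the files give them; no annotation of that build was used. Alternatives were other background corrections, normalisations, filters, probe rules and leaving out an array; normexp with offset 10 was added after seeing the data.

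All 10 members were named with every oligo. Of each other list all called genes were named if 6 or fewer, otherwise the 3 with the largest mean ratios in each direction, and where none was called the gene furthest from 0; further genes named were chosen after their values were seen. The members and the lists were chosen with earlier results of these data known. The number of arrays limits the precision, and no test of the populations was made.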

Additional observations from a re-analysis of the deposited data

How the results depend on the processing

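Of the 3 called members (Ccnd1, Ccnd2 and Cdkn1a) over 11 alternatives, 27 of 33 values kept both direction and call. This count overstates the stability, since part of the values could not differ. The value table repeats the software's own ratio, and both changed filters gave these members the same ratios as before. The median of passing probes could not move Ccnd1 or Cdkn1a, each read by a single oligo. The lost calls came from normexp on all spots, no background subtraction and median centring. The number of genes called over the array, 744 with the processing used throughout, was 275 with normexp fitted on all spots, 418 without background subtraction, 1916 with the software's own ratio, taken from the scanner files or from the value table, 191 with median centring and 1207 with normexp offset 10. The share of calls that were higher in Lgr6-high cells was 60.1%, and it was 45.1% with normexp on all spots and 70.2% with median centring; calls were 209 each way without background subtraction and 958 each way with the software's ratio. The members called, 3 in the text, numbered 1, 2, 7, 0 and 5 in the same order of settings, and the further G1/S genes called, 2 in the text, numbered 1, 1, 8, 0 and 3. Leaving out 1 array gave 748 to 1091 genes (439 to 599 on the Lgr6-high side and 309 to 492 on the Lgr5-high side). Members called were 4 either way, and further G1/S genes 2 to 3. A single array has no spread, and its rule was looser, since the condition on both arrays fell away. The median of all genes moved by at most 0.083 log2 units in any setting. Each array alone, like the pair, measures 1 comparison of pooled sorts, so no spread between animals is known, and the low Cy5 signal over background limits what can be said of Cdkn1b, Cdkn1c and the dim oligos of Cdk6 and Ccne1.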
